A study of Mus musculus with 35 samples.

Results

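The 8 interferon regulatory factor (Irf) genes Irf1, Irf2, Irf3, Irf4, Irf5, Irf7, Irf8 and Irf9 were examined across all sorted myeloid-derived suppressor cell (MDSC) populations of the series. Members were found by gene symbol, matched through the Ensembl identifier, and are 8 of 53379 gene rows in the count table. C57BL/6 mice carried orthotopic pancreatic tumors of T110299 cells, a line from a pancreatic tumor of a genetically engineered mouse, so that all groups come from tumor-bearing animals and from a single tumor line. Treated mice received 50 µg of poly(I:C) complexed with polyethylenimine, poly(I:C)c, intravenously on day 18 and again on day 20 after tumor induction, while the mice labelled untreated received glucose according to the deposited treatment protocol and are described as left untreated in the study's account of this experiment. From spleen and tumor of these mice, live CD11b+ Ly6C-low Ly6G+ polymorphonuclear (PMN-) MDSC and CD11b+ Ly6C-high Ly6G- monocytic (M-) MDSC were sorted. There were 4 libraries in each of the 8 groups except treated splenic PMN-MDSC and treated tumor M-MDSC, with 3 each, and 4 libraries of bulk tumor from untreated mice served as a reference without a test.

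Interferon regulatory factors bind interferon-stimulated response elements in DNA and both start and transmit the interferon response. Irf3, Irf5 and Irf7 are activated by kinases downstream of sensors such as MDA5 and the Toll-like receptors and switch on interferon genes. Irf9 joins Stat2 in ISGF3, the complex through which type I interferon induces its target genes, and Irf7 is itself such a target. Irf1 and Irf2 act on partly shared sites, Irf1 as an activator induced by interferon-γ and Irf2 mostly as an antagonist. Irf4 and Irf8 pair with PU.1 and other factors and direct lineage choice, Irf8 towards monocytes and dendritic cells and away from granulocytes, Irf4 in plasma cells, activated lymphocytes and dendritic cell subsets.

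On the GRCm38 assembly, Irf7 lies on the minus strand at chr7:141262706-141266481, Irf9 on the plus strand at chr14:55603571-55610030, Irf8 on the plus strand at chr8:120736358-120756694 and Irf4 on the plus strand at chr13:30749226-30766976. Irf1, Irf2, Irf3 and Irf5 lie on the plus strand of chromosomes 11, 8, 7 and 6. Irf9 shares 123 exon bases, 2.28% of its exon length, with Rnf31 on the same strand, and no other member shares exon bases on its own strand. RefSeq promoter windows of 250 bases before to 50 after a start site (GRCm38.p6) were found for 8 of 8 members, 11 windows in all. They were searched on both strands for 2 copies of GAAA spaced by 2 bases, the core of the interferon-stimulated response element, and for TTCNNNGAA, the gamma-activated site bound by Stat dimers. Of 32851 promoter windows, 3.44% held the first and 8.3% the second. The 4 windows below are those of the members with a match, and that of Irf7, the member with the largest rise with treatment in each population; capitals mark the matches, and each line reads 5′ to 3′ on the strand of the gene.
Irf7 (chr7:141266375-141266674, minus strand, no match): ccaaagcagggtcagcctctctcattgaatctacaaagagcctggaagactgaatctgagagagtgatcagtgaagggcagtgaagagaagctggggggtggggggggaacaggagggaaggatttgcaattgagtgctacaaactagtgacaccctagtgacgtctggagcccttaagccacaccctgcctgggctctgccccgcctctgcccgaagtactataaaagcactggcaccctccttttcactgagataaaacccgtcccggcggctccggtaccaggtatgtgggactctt
Irf1 (chr11:53769764-53770063, plus strand, gamma-activated site): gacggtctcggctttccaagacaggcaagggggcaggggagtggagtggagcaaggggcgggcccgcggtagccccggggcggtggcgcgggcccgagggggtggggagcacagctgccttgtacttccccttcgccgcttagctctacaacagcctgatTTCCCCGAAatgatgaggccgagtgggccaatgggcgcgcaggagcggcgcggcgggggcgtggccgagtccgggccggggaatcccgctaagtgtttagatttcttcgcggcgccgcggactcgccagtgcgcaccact
Irf2 (chr8:46739495-46739794, plus strand, response element core, then gamma-activated site): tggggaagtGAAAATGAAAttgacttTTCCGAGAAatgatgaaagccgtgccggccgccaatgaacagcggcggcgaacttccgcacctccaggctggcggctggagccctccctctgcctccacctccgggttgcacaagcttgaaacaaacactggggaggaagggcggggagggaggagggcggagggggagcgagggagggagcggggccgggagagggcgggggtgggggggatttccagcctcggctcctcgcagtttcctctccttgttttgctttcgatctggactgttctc
Irf8 (chr8:120736108-120736407, plus strand, gamma-activated sites at 2 positions): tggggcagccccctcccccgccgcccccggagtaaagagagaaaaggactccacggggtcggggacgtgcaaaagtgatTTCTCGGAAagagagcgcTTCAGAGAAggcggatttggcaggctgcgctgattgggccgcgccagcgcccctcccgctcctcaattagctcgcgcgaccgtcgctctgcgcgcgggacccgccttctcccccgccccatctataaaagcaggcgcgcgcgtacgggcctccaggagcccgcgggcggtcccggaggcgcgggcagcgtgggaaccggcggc

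The match of Irf1 begins 90 bases before the start site, and those of Irf8 begin 171 and 153 bases before it. In Irf2, the response element core begins 241 bases and the gamma-activated site 224 bases before the start. The windows of Irf3, Irf4, Irf5, Irf7 and Irf9 held neither string of letters, which says nothing of sites that differ from these letters or lie elsewhere. A match describes letters and is no measured binding site.

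The 30 MDSC libraries held 793070 to 4357105 counts each. Levels are given as CPM, counts scaled to a common library total, and levels of different genes are compared only as FPKM, which also divides by the summed exon length. That length joins the exons of all annotated transcripts, and for Irf7 it equals the gene length of 3776 bases. Markers of the sorted populations were checked first, since sorts can carry other cells. Summed over 8 neutrophil markers, untreated splenic PMN-MDSC reached 14266 to 23875 CPM, whereas untreated tumor PMN-MDSC reached only 1439 to 3829 CPM, still above the 195 to 475 CPM of untreated tumor M-MDSC. Summed over 10 monocyte and macrophage markers, tumor PMN-MDSC from untreated mice held 3540 to 4708 CPM, overlapping the 4132 to 5144 CPM of tumor M-MDSC, while splenic PMN-MDSC held 739 to 1660.0 CPM. The label of the tumor PMN-MDSC is thus only partly borne out by these markers. In such sorted pools, fewer cells of a type and less RNA per cell cannot be told apart.

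With poly(I:C)c, Irf7 rose in all 4 populations, the largest rise in the family. Irf9 rose in tumor PMN-MDSC, Irf4 fell in PMN-MDSC of both compartments and Irf8 fell in splenic PMN-MDSC. Irf1, Irf2, Irf3 and Irf5 did not pass the test in any population. With edgeR's quasi-likelihood test at an adjusted p-value (Benjamini-Hochberg over all genes tested) under 0.05, 3 of 8 members were called in splenic PMN-MDSC, against 11.6% of all genes tested, 3 of 8 in tumor PMN-MDSC, against 3.36%, 1 of 8 in splenic M-MDSC, against 19.6%, and 1 of 8 in tumor M-MDSC, against 2.88%. At a stricter cut (adjusted p below 0.001 together with a 2-fold difference or more), Irf7 was called in tumor PMN-MDSC, where 0.241% of genes were, and in splenic M-MDSC, where 2.47% were.

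**Figure D1:**
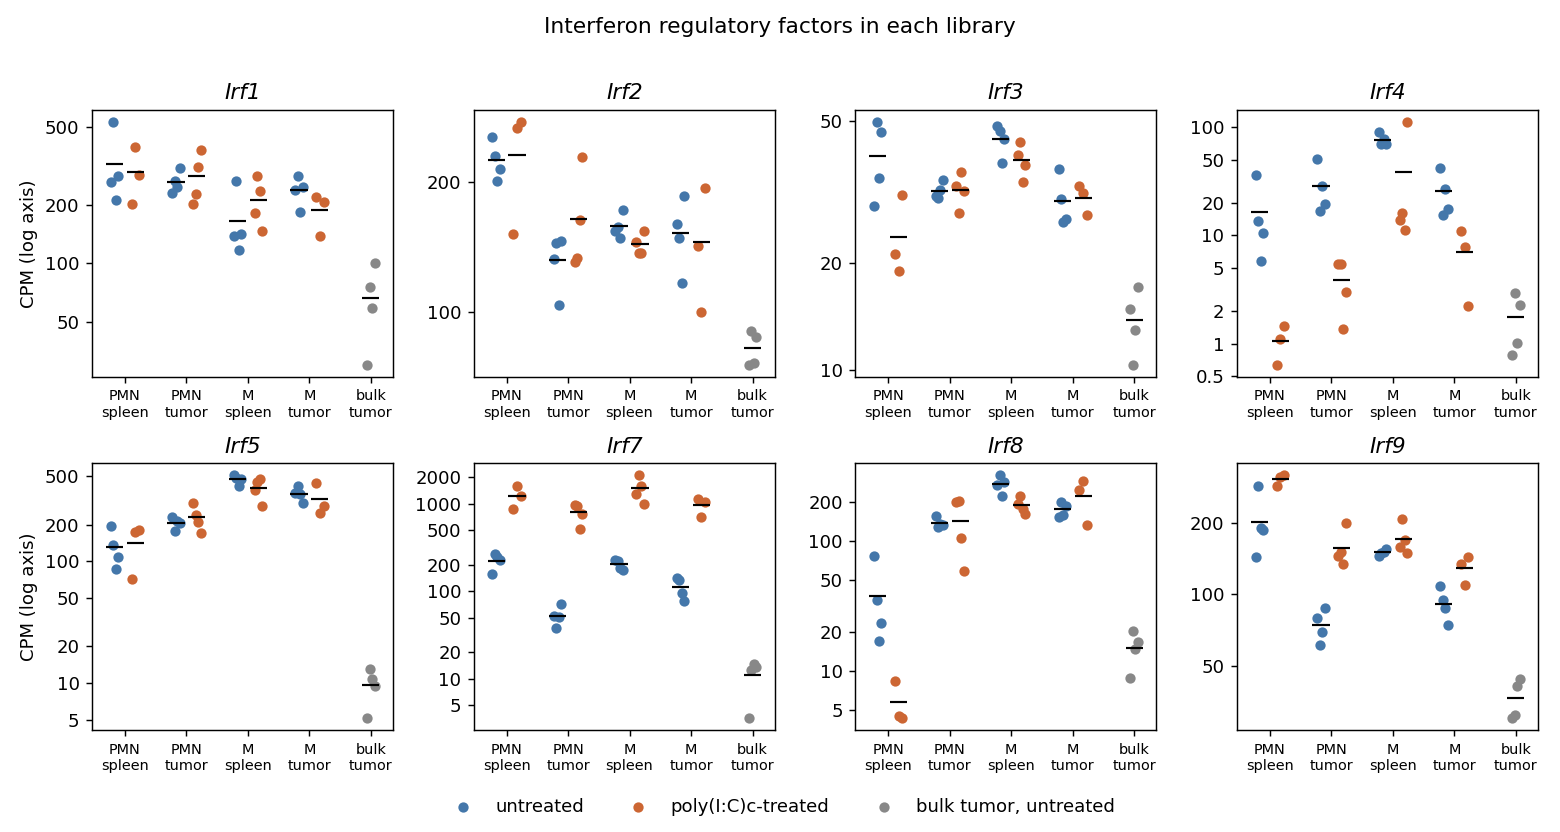
CPM on a log axis of each of the 8 genes in every library, for PMN-MDSC and M-MDSC (M) from spleen and tumor of untreated (blue) and poly(I:C)c-treated (orange) mice and for bulk tumor of untreated mice (grey); each point is 1 library and the black line is the group mean. Treated and untreated libraries separate completely for Irf7 in every population, and 1 treated splenic M-MDSC library stands at 111 CPM of Irf4.

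Irf7, the amplifier of type I interferon production, stood in untreated splenic PMN-MDSC at 155, 269.9, 247 and 225 CPM and in treated ones at 879, 1579.7 and 1235 CPM. In tumor PMN-MDSC it stood at 51.6, 37.9, 50.4 and 70.7 CPM without and at 966, 949.6, 517 and 754 CPM with treatment. The lowest treated library therefore held several-fold more Irf7 than the highest untreated one in both compartments. In splenic M-MDSC, Irf7 was at 229.9, 224, 184 and 173 CPM without and at 1291, 2098, 1596 and 997 CPM with treatment. In tumor M-MDSC it was at 141, 133, 96.8 and 76.9 CPM without and at 1142, 700.006 and 1058 CPM with treatment. The groups did not overlap in any of the 4 comparisons; 6.25%, 7.64%, 10.4% and 12.8% of genes tested were likewise higher without overlap in splenic PMN-, tumor PMN-, splenic M- and tumor M-MDSC.

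The fitted log2 fold change of Irf7 was 2.75 ± 0.31 (SE) in splenic PMN-MDSC (adjusted p = 0.0028, edgeR), 3.88 ± 0.26 in tumor PMN-MDSC (adjusted p = 9.6e-05), 2.95 ± 0.24 in splenic M-MDSC (adjusted p = 6.97e-05) and 3.01 ± 0.28 in tumor M-MDSC (adjusted p = 0.00216). In the order of all genes tested by log2 fold change, Irf7 stood at place 12 of 8308 in tumor PMN-MDSC, 42 of 8360 in tumor M-MDSC, 74 of 7261 in splenic PMN-MDSC and 94 of 8827 in splenic M-MDSC. Irf7 was thus near the top of the list of risen genes in each population. The effect in tumor PMN-MDSC exceeded that in splenic PMN-MDSC by 1.15 on the log2 scale, which missed the threshold (95% interval 0.30 to 2, adjusted p = 0.0948, edgeR interaction). That difference passed without a filter on low counts (adjusted p = 0.0201) and without normalization factors (adjusted p = 0.0119). In M-MDSC the effects in tumor and spleen differed by 0.025 (95% interval -0.81 to 0.86). In that interaction, tumor against spleen in M-MDSC, edgeR called 0 of 8 members, against 1.48% of genes. At an unadjusted p under 0.05, 0 members and 12.6% of genes passed, and DESeq2 called 0 members and 232 of 8536 genes. Between M-MDSC and PMN-MDSC of tumor, the effect in M-MDSC minus that in PMN-MDSC was -0.86 for Irf7 and -0.66 for Irf9 on the log2 scale, both passing at an unadjusted p under 0.05 (0.0476 and 0.0468) and neither after adjustment. There edgeR called 0 of 8 members and 0% of genes, 797 genes passed at an unadjusted p under 0.05, and DESeq2 called 30 genes and 0 members.

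With this rise, Irf7 became the leading member of the family by FPKM in every treated population. In untreated mice Irf7 made up 22.2% ± 5.71 (SD) of the summed FPKM of the 8 genes in splenic PMN-MDSC, 6.34% ± 1.19 in tumor PMN-MDSC, 14.4% ± 1.33 in splenic M-MDSC and 10.1% ± 1.88 in tumor M-MDSC. In treated mice its share was 59.7% ± 2.03, 47.1% ± 6.89, 57.2% ± 4.31 and 50.9% ± 3.74 (n = 3 or 4 each). Before treatment, the leading member by mean FPKM was Irf1 in splenic PMN-MDSC and Irf5 in the other populations. In tumor PMN-MDSC, Irf5 and Irf1 were close, at means of 71.7 and 65.9 FPKM with overlapping ranges.

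**Figure D2:**
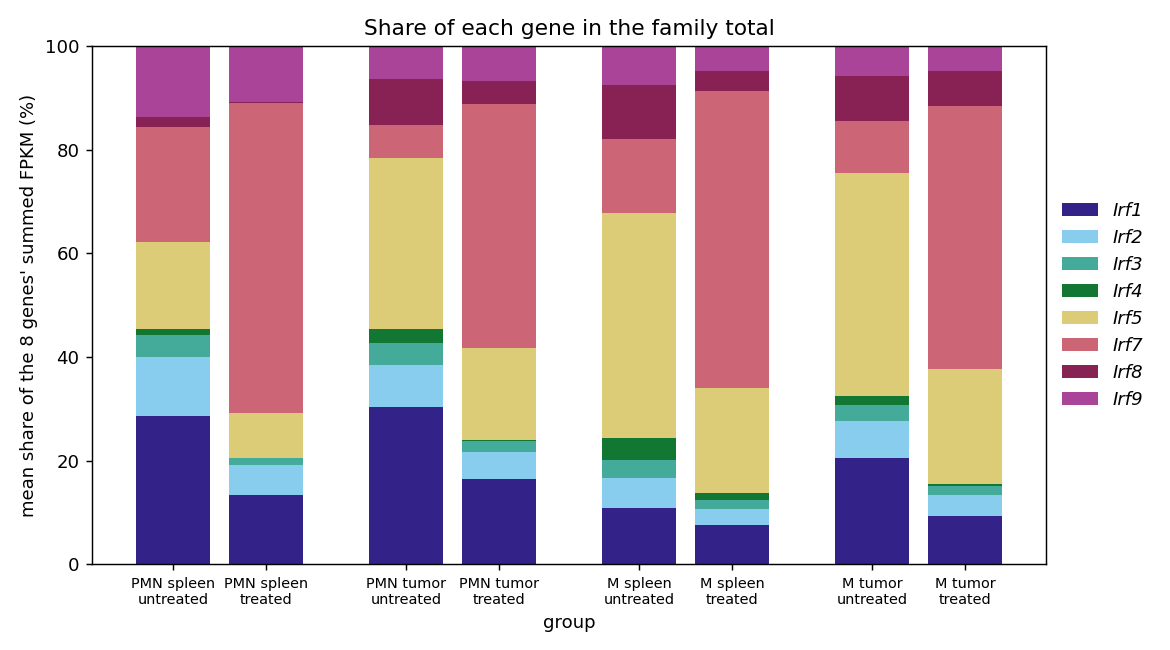
Mean share (%) of each gene in the summed FPKM of the 8 interferon regulatory factor genes, stacked for untreated and poly(I:C)c-treated libraries of each population (n = 3 or 4 libraries per bar). The Irf7 block grows from 6.34 to 22.2% in untreated to 47.1 to 59.7% in treated groups.

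Irf9, the DNA-binding subunit of ISGF3, changed far less than Irf7. In tumor PMN-MDSC it stood at 79.5, 61.2, 69.1 and 87.3 CPM without and at 146, 151, 134 and 199.8 CPM with treatment. These groups did not overlap, and the log2 fold change was 1.08 ± 0.20 (adjusted p = 0.0163, edgeR). Leaving out untreated library 1, 2 or 3 lost the call, at an adjusted p-value of 0.0509, 0.0603 or 0.0746. In splenic PMN-MDSC, Irf9 stood at 143, 288, 191 and 186 CPM without and at 286, 314 and 318 CPM with treatment, so that 1 untreated library lay among the treated ones. The log2 value of 0.87 ± 0.28 missed the threshold (adjusted p = 0.0792), although DESeq2 called it (adjusted p = 0.0229), as did edgeR with all 8 groups in the fit (adjusted p = 0.00721) or with no filter on low counts (adjusted p = 0.0159). Without untreated library 2, the one among the treated libraries, it also passed (1.16, adjusted p = 0.0117). In splenic M-MDSC the log2 value was 0.26 (95% interval -0.017 to 0.54, adjusted p = 0.174), from 145.6 to 155 CPM in untreated and 149 to 208 CPM in treated libraries. In tumor M-MDSC the groups did not overlap, at 74.4 to 108 CPM without and 109 to 144 CPM with treatment, and the log2 value was 0.40 (95% interval -0.027 to 0.83, adjusted p = 0.289). None of the 4 differences in the Irf9 effect between populations passed the adjusted test, with interaction values from -0.66 to 0.23 on the log2 scale. Without that same untreated splenic library, the difference between splenic M- and PMN-MDSC passed (-0.98, adjusted p = 0.0138).

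Irf4 was the member that fell most. In tumor PMN-MDSC it stood at 50.3, 16.8, 28.4 and 19.4 CPM without and at 5.48, 5.46, 1.37 and 3.01 CPM with treatment. The groups did not overlap, as for 4.07% of genes that were lower, and the log2 fold change was -2.86 ± 0.43 (adjusted p = 0.00424, edgeR). In splenic PMN-MDSC it stood at 35.8, 13.4, 5.76 and 10.6 CPM without treatment and at 0.64, 1.11 and 1.44 CPM, that is 1, 3 and 4 counts, with it. The log2 fold change was -3.53 ± 0.77 (adjusted p = 0.0233), and so few counts leave its size uncertain (95% interval -5.30 to -1.77). It lost its call when any of the 3 treated libraries was left out, with adjusted p-values of 0.0503, 0.0686 and 0.0784.

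In M-MDSC, Irf4 gave no call, and in spleen this rested on a single library. Untreated splenic M-MDSC held 90.2, 69.7, 77 and 69.7 CPM, and treated ones held 13.8, 16, 11.1 and 111 CPM. The first 3 treated libraries lay far below every untreated one and library 4 above all of them. With library 4 the log2 value was -0.96 ± 0.73 (adjusted p = 0.401), and without it the log2 value was -2.38 (adjusted p = 5.33e-05). The same library held 1103.5 CPM summed over 5 plasma cell markers, against 16.6 to 51.7 CPM in the other treated and 14.8 to 81.4 CPM in the untreated libraries, with 1 of 5 markers higher in all treated libraries than in every untreated one and 0 of 5 at zero. It also held 153 CPM of 7 B cell markers, 134 CPM of 5 NK cell markers, 73.4 CPM of 6 plasmacytoid dendritic cell markers and 42.9 CPM of 7 T cell markers, against at most 22.7, 10.5, 6.08 and 4.05 CPM in the other treated and at most 99.1, 7.43, 6.90 and 5.27 CPM in the untreated libraries. Their part in the Irf4 level was not tested. In tumor M-MDSC, Irf4 stood at 42.3, 15.5, 26.6 and 17.7 CPM without and at 11, 7.80 and 2.21 CPM with treatment, which did not overlap, as for 7.05% of genes that were lower. The log2 value of -1.98 ± 0.54 missed the threshold (adjusted p = 0.0774), while DESeq2 called it (adjusted p = 0.00752), as did edgeR with no filter on low counts (adjusted p = 3.57e-05). In these tumor M-MDSC, plasma cell markers summed to 27.7 to 37.7 CPM without and 5.28 to 14.7 CPM with treatment, 1 of 5 lower without overlap and 2 of 5 at zero in each group. Most of this sum was Sdc1, at a mean of 30.5 CPM without and 8.48 CPM with treatment and of 320.1 CPM in bulk tumor, while Jchain, the joining chain of secreted antibodies, stood at 2.32 and 2.12 CPM. Epithelial tumor cell markers summed to 102 to 332 CPM without and 75.2 to 107 CPM with treatment, 1 of 6 lower without overlap and 1 of 6 at zero with treatment. Among all genes tested there, 7.05% were lower and 12.8% higher without overlap. Conventional dendritic cell markers summed to 119 to 147 CPM without and 178 to 641 CPM with treatment, but 1 of 8 was higher and 1 of 8 lower without overlap and 1 of 8 at zero with treatment. Most of that sum was Itgax (mean 94.1 and 333 CPM), whereas Flt3 (3.04 and 0.58 CPM) and Cd209a (12.4 and 0 CPM) had lower means with treatment. Their part in the Irf4 values was not tested.

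Irf8, which promotes monocytes over granulocytes, fell with treatment in splenic PMN-MDSC and not in tumor PMN-MDSC. Splenic PMN-MDSC held 76.1, 34.9, 16.9 and 23.4 CPM without and 8.32, 4.46 and 4.32 CPM with treatment. No treated library reached the lowest untreated one, as for 24.2% of genes tested that were lower, and the log2 fold change was -2.48 ± 0.59 (adjusted p = 0.0296, edgeR). Leaving out treated library 2 or 3 lost the call (adjusted p = 0.0876 and 0.106), and leaving out untreated library 1, which held the most Irf8, gave -1.94. Tumor PMN-MDSC held 156, 128, 134 and 133 CPM without and 199, 204, 105 and 58.6 CPM with treatment, so that the treated libraries lay on both sides of the untreated ones (log2 -0.023, 95% interval -0.67 to 0.62). The effect in tumor exceeded that in spleen by 2.47 ± 0.55 on the log2 scale (adjusted p = 0.00707, edgeR interaction), in a test where 6.28% of genes were called in either direction. Without treated splenic library 3 this call was lost (adjusted p = 0.0538).

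In splenic M-MDSC, Irf8 stood at 271, 319, 221 and 284 CPM without and at 192, 223, 177 and 162 CPM with treatment. The groups met at their edges and the log2 value of -0.47 ± 0.15 narrowly missed the threshold (adjusted p = 0.0543), with DESeq2 calling it (adjusted p = 0.0387), as did edgeR without treated library 2 (adjusted p = 0.0216). Tumor M-MDSC held 153, 200.2, 158 and 187 CPM without and 245, 287 and 133 CPM with treatment (log2 0.25, 95% interval -0.34 to 0.84). In spleen, the effect in M-MDSC exceeded that in PMN-MDSC by 2.07 ± 0.55 (adjusted p = 0.0132, edgeR interaction), in a test where 13.4% of genes were called. Without treated splenic PMN-MDSC library 2 or 3 this call was lost (adjusted p = 0.0604 and 0.0788). In both interactions the libraries of splenic PMN-MDSC are the same.

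In the splenic PMN-MDSC, markers of other cell types moved with Irf8 and Irf4. Of all genes tested there, 24.2% were lower and 6.25% higher in CPM without overlap. Summed over 8 markers of conventional dendritic cells, a population that uses both factors, untreated libraries held 270.3 to 456 CPM and treated ones 10.1 to 63.9 CPM, with 5 of 8 markers lower without overlap and 2 of 8 at zero in every treated library. Most of this sum was Itgax, at a mean of 280.4 CPM without and 30.4 CPM with treatment. Of 10 monocyte and macrophage markers, 7 were lower without overlap, although their sum overlapped, at 739 to 1660.0 CPM without and 825 to 1272 CPM with treatment. The 8 neutrophil markers moved the other way, with 6 of 8 higher and 1 of 8 lower without overlap, and their sum at 26006 to 34074 CPM with treatment. B cell markers summed to 43.8 to 119 CPM without and 10.9 to 41.2 CPM with treatment, 3 of 7 lower without overlap and 0 of 7 at zero, and B cells are known to use both factors. Erythroid markers summed to 59.3 to 175 CPM without and 0.36 to 7.04 CPM with treatment, 4 of 6 lower without overlap and 2 of 6 at zero in every treated library. Endothelial markers summed to 25.1 to 67.9 CPM without and 9.61 to 15.2 CPM with treatment, 1 of 4 lower without overlap. Epithelial tumor cell markers summed to 16.3 to 33.4 CPM without and 2.52 to 9.28 CPM with treatment, 1 of 6 lower without overlap. Among the 4 untreated libraries, the one with the most Irf8 and Irf4 also had the highest sums of the dendritic cell, monocyte and macrophage, B cell and erythroid markers. Plasma cell markers were highest in another untreated library, with sums of 6.78 to 25.9 CPM without and 4.08 to 7.92 CPM with treatment, 1 of 5 lower without overlap and 1 of 5 at zero with treatment. T cell markers summed to 11 to 17.3 CPM without and 1.08 to 4.08 CPM with treatment, 1 of 7 lower without overlap, with 1 of 7 at zero without and 2 of 7 with treatment. The plasma cell and T cell counts are not above the 24.2% of all genes. In tumor PMN-MDSC, treated libraries 1 and 2, the highest in Irf8, held 6794 and 6922 CPM of the monocyte and macrophage markers, and libraries 3 and 4, the lowest, held 4020.4 and 3223 CPM. The conventional dendritic cell markers there, in tumor PMN-MDSC, summed to 359 to 397 CPM without and 99.5 to 365 CPM with treatment, 2 of 8 lower without overlap and 0 at zero. Most of that sum was again Itgax (mean 340.8 and 250.4 CPM). Neutrophil markers there summed to 1439 to 3829 CPM without and 3459 to 10100.3 CPM with treatment, 2 of 8 higher without overlap and 0 at zero. Of all genes tested in tumor PMN-MDSC, 4.07% were lower and 7.64% higher without overlap. Plasma cell markers there summed to 17.6 to 85.5 CPM without and 5.17 to 23.3 CPM with treatment, with 5 of 5 overlapping and 1 of 5 at zero in each group, and most of the sum was Sdc1 (mean 38.6 and 13.7 CPM, against 320.1 CPM in bulk tumor). Epithelial tumor cell markers there summed to 126 to 765 CPM without and 69.8 to 193 CPM with treatment, 1 of 6 lower without overlap and 0 at zero. The part of these cells in the Irf values was not tested.

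**Figure D3:**
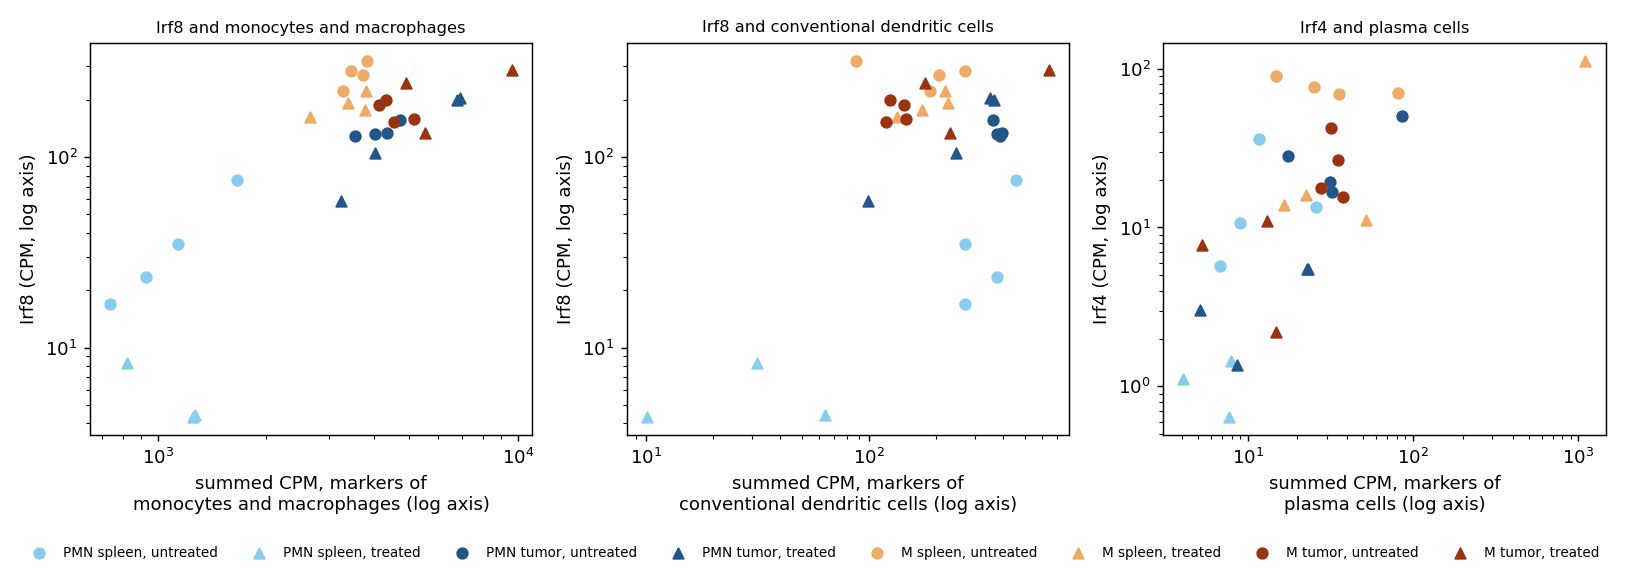
CPM of Irf8 against the summed CPM of 10 monocyte and macrophage markers (left) and of 8 conventional dendritic cell markers (middle), and CPM of Irf4 against 5 plasma cell markers (right), all on log axes, with 1 point per library coloured by population and circles for untreated, triangles for treated mice. Treated splenic PMN-MDSC, at 4.32 to 8.32 CPM, lie lowest for Irf8, and 1 treated splenic M-MDSC library with 1103 CPM of plasma cell markers has the highest Irf4. In PMN-MDSC the dendritic cell sum is mostly Itgax.

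The remaining members showed no called change with treatment. Irf1, the interferon-γ-induced activator, ranged over 212 to 531 CPM in untreated and 202 to 394 CPM in treated splenic PMN-MDSC, and over 117 to 264 and 145.5 to 281 CPM in splenic M-MDSC. Its log2 values were 0.15, 0.096, 0.42 and -0.43 in splenic PMN-, tumor PMN-, splenic M- and tumor M-MDSC, with the smallest adjusted p-value at 0.353 (edgeR). The 95% interval reached from -0.76 to 1.05 in splenic PMN-MDSC, so a change of up to about 2-fold there could not be told from none. Irf2, its antagonist, gave -0.16 to 0.34 (smallest adjusted p = 0.415), with the narrowest interval in splenic M-MDSC, -0.29 to 0.16. Irf3, a constitutively expressed factor activated downstream of nucleic acid sensors, gave -0.47 to -0.016 (smallest adjusted p = 0.344), and Irf5, an activator of inflammatory cytokines in macrophages, gave -0.24 to 0.41 (smallest adjusted p = 0.532). In tumor PMN-MDSC the 95% intervals of Irf3 and Irf5 ran from -0.40 to 0.37 and from -0.25 to 0.46.

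CPM and fitted values can differ for splenic PMN-MDSC, since the normalization factors (TMM) were 0.683 to 0.774 in treated and 0.819 to 0.939 in untreated libraries. Without these factors the median log2 change of all genes there was -0.30 instead of 0.014, and the split of called genes moved from 443 higher and 401 lower to 283 higher and 899 lower. Irf1 then changed sign in this population, to -0.14, and no call of a member by treatment there was lost. The median moved by less in tumor PMN-MDSC (0.028), splenic M-MDSC (-0.075) and tumor M-MDSC (0.10), where the split moved from 190 higher and 89 lower to 223 and 58, from 942 and 791 to 775 and 996, and from 152 and 89 to 225 and 84. Irf8 in splenic M-MDSC passed without the factors (adjusted p = 0.0262). For the interactions, the median moved by 0.32 (tumor minus spleen, PMN-MDSC), 0.20 (the same in M-MDSC) and 0.18 (M- minus PMN-MDSC, spleen), and the split from 466 higher and 70 lower to 1154 and 35, from 41 and 85 to 69 and 67, and from 901 and 243 to 1250 and 150, with both Irf8 differences still called.

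**Figure D4:**
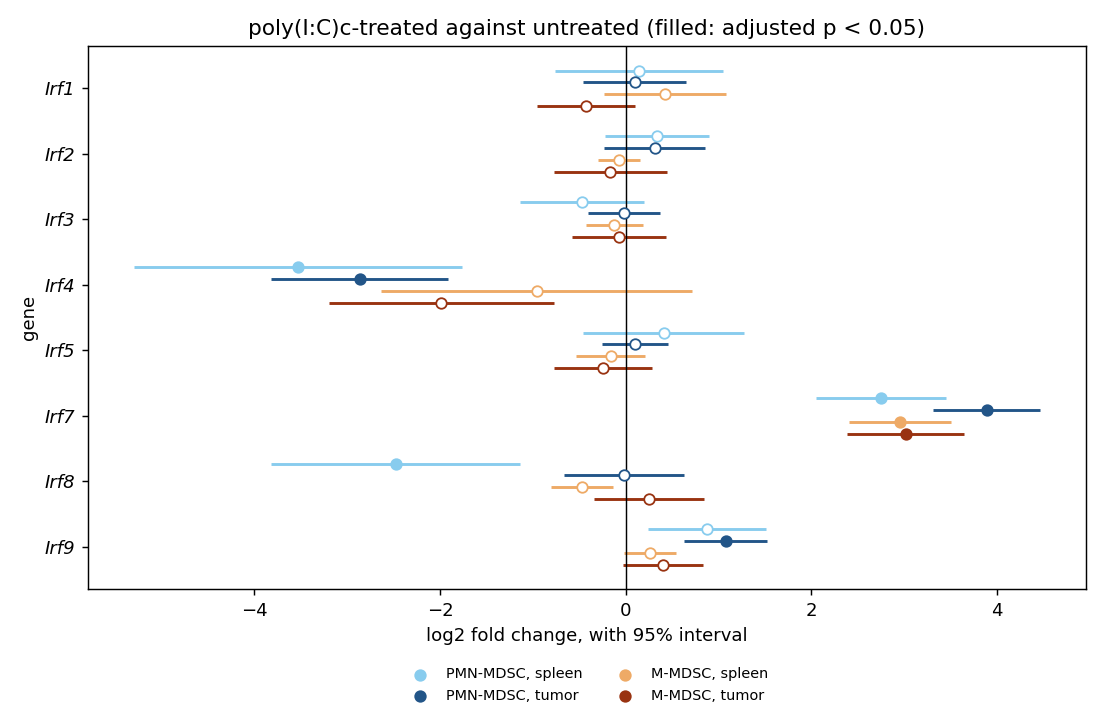
Log2 fold change of the 8 genes with poly(I:C)c treatment in each of the 4 populations, as points with 95% intervals from edgeR; filled points have an adjusted p-value under 0.05. Irf7 lies between 2.75 and 3.88 in all populations, while the intervals of Irf1, Irf2, Irf3 and Irf5 cross 0.

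Among untreated mice, tumor PMN-MDSC had less Irf7 (log2 -2.28 ± 0.29, adjusted p = 5.36e-07), Irf9 (-1.64 ± 0.22, adjusted p = 8.28e-07), Irf2 (-0.93 ± 0.23, adjusted p = 0.00131) and Irf3 (-0.50 ± 0.19, adjusted p = 0.0274) and more Irf8 (1.71 ± 0.34, adjusted p = 0.000128) than splenic PMN-MDSC in edgeR's test. The 5 of 8 members called stand against 59.8% of all genes tested, so the family changed about as often as genes in general. For Irf7, the 37.9 to 70.7 CPM in tumor lay below the 155 to 269.9 CPM in spleen, and for Irf9 the 61.2 to 87.3 CPM lay below 143 to 288 CPM. For Irf8, the 128 to 156 CPM in tumor lay above the 16.9 to 76.1 CPM in spleen. Of all genes tested, 22.1% were lower and 31.2% higher in tumor without overlap. The 10 monocyte and macrophage markers moved with Irf8, with 8 of 10 higher and 1 of 10 lower in tumor without overlap and none at zero in either group. Of the neutrophil markers, 8 of 8 were lower, as were 7 of 7 B cell markers. Markers of pancreatic acinar cells (6 of 6), epithelial tumor cells (4 of 6, with 1 of 6 lower) and fibroblasts (4 of 5) were higher in tumor without overlap. Their part in these differences was not tested. Irf3 lost its call when tumor library 1, 2 or 3 or splenic library 2 or 4 was left out (adjusted p = 0.0574 to 0.144), with no filter (adjusted p = 0.156) in a fit of these 2 groups alone (adjusted p = 0.11) and without normalization factors (adjusted p = 0.13). Irf5, at 0.50 in the fit (adjusted p = 0.0894), passed without splenic library 1 (adjusted p = 0.0309) and without the factors (adjusted p = 0.0242). Leaving out the factors moved the median of all genes in this comparison by 0.16.

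Between spleen and tumor M-MDSC of untreated mice, 0 of 8 members were called, against 21.6% of genes, in a fit that does not pair mice. At an unadjusted p under 0.05, 4 of 8 members passed edgeR, against 33% of genes, and DESeq2 called 0 members and 2081 of 8536 genes. The fitted log2 values of those 4 were -0.59 for Irf7 (95% interval -1.17 to -0.016), -0.45 for Irf9 (-0.90 to -0.0096), -1.29 for Irf4 (-2.49 to -0.0999) and 0.77 for Irf1 (0.088 to 1.46), at adjusted p-values of 0.141, 0.143, 0.118 and 0.103. Irf1 passed without splenic library 2 (adjusted p = 0.0238), and Irf9 without tumor library 1 (adjusted p = 0.0395). In a fit of these 2 groups alone, 4 members passed, namely Irf1, Irf4, Irf7 and Irf9, with adjusted p-values of 0.0379, 0.0031, 0.0379 and 0.024. That fit called 2357 of 8298 genes. Scaling by library totals alone moved the median of all genes here by -0.265 and the split from 1119 higher and 726 lower to 783 and 1754, and then called Irf3, Irf7 and Irf9.

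Compared with splenic PMN-MDSC, splenic M-MDSC of untreated mice had more Irf8 (log2 2.40 ± 0.34, adjusted p = 2.14e-06), Irf5 (1.38 ± 0.26, adjusted p = 6.33e-05) and Irf4 (1.77 ± 0.58, adjusted p = 0.0111) and less Irf1 (-1.47 ± 0.34, adjusted p = 0.000603), Irf9 (-0.93 ± 0.21, adjusted p = 0.000614) and Irf2 (-0.98 ± 0.23, adjusted p = 0.000815) by edgeR. These 6 of 8 members stand against 60.6% of genes called. Irf5 lay at 412 to 507 CPM in M-MDSC and 86.4 to 195 CPM in PMN-MDSC, and Irf8 at 221 to 319 and 16.9 to 76.1 CPM. Both therefore separated the splenic populations completely, as did 44.8% of genes in that direction. Irf7, at -0.63 (adjusted p = 0.0513), just missed the threshold and passed with DESeq2 (adjusted p = 0.033). Without splenic PMN-MDSC library 1, Irf3 and Irf7 passed as well (adjusted p = 0.0215 and 0.0158). By library totals alone the median of all genes moved by 0.46 and the split from 2501 higher and 2672 lower to 3927 and 1609, with the same number of members called. In tumor, only Irf7 differed between M-MDSC and PMN-MDSC at this threshold (1.05 ± 0.29, adjusted p = 0.0239, edgeR), where 7.61% of genes were called, at 76.9 to 141 CPM against 37.9 to 70.7 CPM, a separation in that direction that 10% of genes showed. It lost the call when M-MDSC library 1 or 2 or PMN-MDSC library 2 or 3 was left out (adjusted p = 0.0617 to 0.089). Lower in M-MDSC without overlap were 6 of 8 neutrophil, 3 of 8 conventional dendritic cell (1 of 8 higher) and 3 of 6 pancreatic acinar markers, against 9.08% of genes. Of the monocyte and macrophage markers, 4 of 10 were higher and 4 of 10 lower. The part of these cells was not tested. Irf5 was higher by 0.75 (95% interval 0.23 to 1.27, adjusted p = 0.0693), and passed with DESeq2 (adjusted p = 0.0341) and in a fit of the tumor groups alone (adjusted p = 0.00429). These comparisons share their groups, so they are not independent, and libraries that come from the same mouse were not paired.

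**Figure D5:**
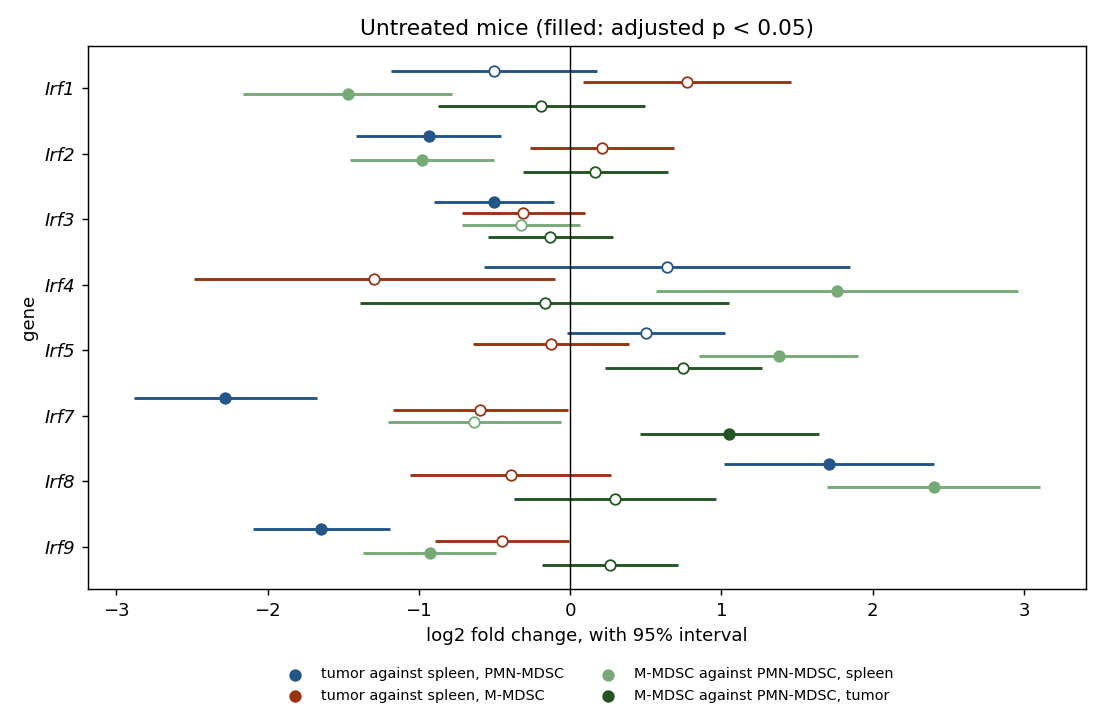
Log2 fold change of the 8 genes between compartments and between MDSC types in untreated mice, as points with 95% intervals from edgeR; filled points have an adjusted p-value under 0.05. 5 members lie filled for tumor against splenic PMN-MDSC and 6 for splenic M-MDSC against PMN-MDSC, and 0 and 1 in the other comparisons.

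By FPKM, untreated M-MDSC were led by Irf5, at 162 ± 14 (SD, n = 4) in spleen and 124 ± 15.5 (SD, n = 4) in tumor. Bulk tumor held less of every member than each untreated MDSC population, without overlap, except Irf8 in splenic PMN-MDSC, where bulk tumor held 8.72 to 20.2 CPM and the ranges overlapped. Irf7 stood there at 3.57 to 14.7 CPM and Irf5 at 5.15 to 13 CPM. In the order of groups by mean CPM, Irf7 ran from treated splenic M-MDSC through the other treated groups with overlapping ranges, then after a gap to untreated splenic PMN-MDSC (224 CPM) and splenic M-MDSC (203 CPM), which overlapped, and then to tumor M-MDSC (112 CPM) and tumor PMN-MDSC (52.6 CPM), which did not. Irf5 ran from M-MDSC to PMN-MDSC with each neighbour overlapping the next.

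Genes with patterns like those of each member were sought by Pearson's r of log2(CPM + 1) over the 30 MDSC libraries among 8536 genes; these r are descriptions and are shaped by the groups the libraries share. Irf7 was most like Ddx58, which encodes the RNA sensor RIG-I (r = 0.946), H2-T23 (r = 0.944) and Usp18, the deconjugase of Isg15 (r = 0.933). When each library was taken as its deviation from its group mean, these r were 0.62, 0.75 and 0.567. Irf9 was most like H2-T24 (r = 0.94), AI837181 (r = 0.934) and Xdh (r = 0.925), with 0.539, 0.578 and 0.556 within groups. Irf8 was most like Cln8 (r = 0.984), Ifi30, a lysosomal thiol reductase (r = 0.98), and Pld4 (r = 0.98), and the r of Cln8 was 0.834 within groups. Irf5 was most like Itpr1 (r = 0.945), Tmem259 (r = 0.942) and Psap (r = 0.921), and Irf4 like Kbtbd11 (r = 0.903), Kmo (r = 0.893) and Padi2 (r = 0.863). Within groups the r of these Irf4 partners were 0.668, 0.579 and 0.479. Irf1 was most like Snx20 (r = 0.846), Ptafr (r = 0.792) and Slc2a6 (r = 0.782), and Irf2 like Usp3 (r = 0.863), Nsd3 (r = 0.835) and Stat6 (r = 0.83). Irf3 had the loosest partners, Exosc5 (r = 0.77), Pip4p1 (r = 0.748) and Phf2 (r = 0.741), whose r fell to 0.335, 0.435 and 0.427 within groups and stood at 0.556, 0.477 and 0.69 over CPM with TMM factors.

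Around the family, genes that carry the signal to Irf3, Irf5 and Irf7 rose in part. Of the sensors, adaptors and kinases tested, 3 of 13 rose in splenic PMN-, 2 of 14 in tumor PMN-, 5 of 14 in splenic M- and 1 of 14 in tumor M-MDSC, and 0 fell. Among all genes tested, 6.1%, 2.29%, 10.7% and 1.82% rose and 5.52%, 1.07%, 8.96% and 1.06% fell in these populations. In tumor, the genes that rose were the RNA sensors Ddx58 and Ifih1 in PMN-MDSC and Ddx58 alone in M-MDSC, and 0 adaptors or kinases passed the test. Ddx58 rose in all of these, by log2 1.65 ± 0.25 (adjusted p = 0.00651), 1.58 ± 0.19 (adjusted p = 0.00149), 1.98 ± 0.16 (adjusted p = 5.95e-05) and 1.51 ± 0.24 (adjusted p = 0.0169, edgeR). Ifih1, which encodes MDA5, rose in both PMN-MDSC populations and in splenic M-MDSC, by 2.25 ± 0.35, 1.02 ± 0.23 and 1.87 ± 0.20 (adjusted p = 0.00739, 0.0351 and 0.00026), and stood at 0.98 ± 0.25 in tumor M-MDSC (adjusted p = 0.0678). Ikbke, a kinase of Irf3 and Irf7, rose in splenic PMN- and M-MDSC by 2.75 ± 0.42 and 1.69 ± 0.17 (adjusted p = 0.00651 and 0.000201).

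Of 9 genes from the interferon receptors to ISGF3, 1 rose in splenic PMN-, 1 in tumor PMN-, 3 in splenic M- and 0 in tumor M-MDSC, against 6.1%, 2.29%, 10.7% and 1.82% of all genes tested. Stat2, the partner of Irf9, rose by 2.67 ± 0.40, 1.42 ± 0.23 and 1.47 ± 0.23 in the first 3 of these (adjusted p = 0.00651, 0.00724 and 0.00218, edgeR), and in tumor M-MDSC stood at 0.76 ± 0.25 (adjusted p = 0.132). Ifngr1, a chain of the interferon-γ receptor, fell in splenic M-MDSC by 1.15 on the log2 scale (adjusted p = 0.00337). Jak2 rose there by 0.51 ± 0.12 (adjusted p = 0.0152). Among the DNA-binding and co-regulator partners, 1 of 8, 1 of 7, 1 of 10 and 0 of 10 tested rose and 0, 0, 1 and 0 fell. In splenic M-MDSC this is near the 10.7% and 8.96% of all genes, and elsewhere each count is at most 1 gene. Trim21 rose in splenic PMN-MDSC (2.03 ± 0.24, adjusted p = 0.00303) and tumor PMN-MDSC (1.06 ± 0.26, adjusted p = 0.0471). In splenic M-MDSC, Batf2 rose (3.20 ± 0.50, adjusted p = 0.00231) and Batf3 fell (-1.52 ± 0.28, adjusted p = 0.00451).

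Of 12 ISGF3 target genes, 11 rose in splenic PMN-, 12 in tumor PMN-, 12 in splenic M- and 6 in tumor M-MDSC, against 6.1%, 2.29%, 10.7% and 1.82% of all genes tested, with median log2 changes of 3.34, 2.68, 2.99 and 2.19 against 0.014, 0.0063, -0.012 and -0.00054 over all genes. Ifit3, an antiviral gene with tetratricopeptide repeats, rose by 4.70 ± 0.46 in splenic PMN-MDSC, 4.18 ± 0.41 in tumor PMN-MDSC and 3.59 ± 0.33 in tumor M-MDSC (adjusted p = 0.00195, 0.000621 and 0.00216, edgeR), and Ifit2 by 3.64 ± 0.19 in splenic M-MDSC (adjusted p = 8.79e-06). Of 10 genes that Irf1 is known to regulate, 5, 4, 7 and 1 rose in the same order of populations, and 1, 1, 1 and 0 fell. Of all genes tested, 5.52%, 1.07%, 8.96% and 1.06% fell, so the fall of 1 gene in splenic M-MDSC is near that share. Tap1, the peptide transporter of antigen presentation, rose by 1.78 ± 0.33, 1.07 ± 0.16 and 1.2 ± 0.17 in splenic PMN-, tumor PMN- and splenic M-MDSC (adjusted p = 0.0136, 0.00341 and 0.0012). Ciita, the master regulator of MHC class II genes, was the gene of this list that fell, with log2 values of -4.56 ± 0.67, -2.79 ± 0.51 and -3.18 ± 0.34 (adjusted p = 0.00595, 0.0188 and 0.000357).

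Of the monocyte genes that Irf8 is known to control, 1 of 7 rose and 1 of 7 fell in splenic PMN-, tumor PMN- and splenic M-MDSC, and 1 of 8 rose in tumor M-MDSC. Of all genes tested, 6.1%, 2.29%, 10.7% and 1.82% rose and 5.52%, 1.07%, 8.96% and 1.06% fell in this order. The counts in splenic M-MDSC are near the background. Each count elsewhere is at most 1 gene, too few to read as a result about the list. The riser was Pml in each, with log2 values of 1.12, 1.19, 1.62 and 1.18. Klf4, a transcription factor of monocyte differentiation, fell in splenic PMN-MDSC (adjusted p = 0.00824), where the treated libraries held 3 counts in all and the size is therefore not given, and in splenic M-MDSC (-0.97 ± 0.28, adjusted p = 0.0374), and Nf1 fell in tumor PMN-MDSC (-0.72 ± 0.17, adjusted p = 0.0443, edgeR). Of the interferon genes themselves, 0 of 9 reached the count needed for a test in any population. Ifnb1 had 45 counts in total over 13 of the 30 MDSC libraries, so its level was not measurable at this depth.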

How the data were processed

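RNA of sorted MDSC and bulk tumor was sequenced after ribosomal depletion with a stranded, PCR-based total RNA kit. Per gene, the table the authors deposited holds un-normalized fragment counts. According to their methods, reads were mapped to mm10 with ContextMap and BWA and counted by strand with featureCounts (Subread 1.4.6-p3 per the labels) on a Gencode annotation. All other values were computed here from the deposited counts. A floor of 1000 counts per library dropped 1 treated tumor M-MDSC library, which held 10 counts, and kept 34 of 35. Columns were assigned to groups by the names in their headers, and library numbers only name columns. Of 48 pairs of libraries within groups, 0 differed by as little as sampling noise. Sample titles number the mice across populations, but the count columns do not carry these numbers. The running numbers of the columns follow the order of the titles, but this order was not used to match mice. Libraries of the same mouse were thus not paired and were treated as independent between populations. The p-values measure the spread between these samples. CPM used the library total, FPKM also the summed exon length of GENCODE M21, which gave symbols for 53274 of 53379 gene rows.

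Tests used edgeR 4.0.16 in R 4.3.3 (TMM, robust quasi-likelihood F-test, two-sided) on genes averaging 25 counts or more over the libraries fitted. Each treatment comparison was fitted on its own libraries, the other 8 contrasts in 1 fit over the 30 MDSC libraries. Alternatives were DESeq2 1.42.0, RLE factors, no filter, other sets of groups in the fit, a stricter threshold, each library left out in turn and, added after seeing the data, library totals without factors. Each SE was back-calculated as the absolute log2 fold change divided by the square root of the F statistic. The 95% intervals were built from it with the t distribution, and both are approximate, the more so where counts are few. The code was tested on simulated counts. Named genes were all 8 members, the 3 of each list with the smallest adjusted p and the 3 with the highest r for each member; Jak2, Ifngr1, Nf1 and other list genes come from that rule. The members and lists were chosen with earlier results of these data known. Genes that failed the filter were not tested. Depth, 793070 to 4357105 counts per MDSC library, limits low genes such as Irf4 in splenic PMN-MDSC, and counts come from PCR without stated molecular identifiers. Some items, among them part of the genotype behind the tumor line, are not reported here.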

Additional observations from a re-analysis of the deposited data

Results flagged for a closer look

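Irf4 in treated splenic M-MDSC had 1 library far from the others, at 111 CPM against 11.1 to 16 CPM. This was the 1 group of 56 groups of 4 libraries examined in which the gap of the highest or lowest library passed Dixon's 95% limit, and chance alone gives such a gap in about 1 of 20 groups. The library also carried the plasma cell markers given above, whose part was not tested.

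The treatment effect on Irf8 differed between populations in both tested interactions that involve splenic PMN-MDSC. It was higher by 2.47 on the log2 scale in tumor than in splenic PMN-MDSC, and higher by 2.07 in splenic M-MDSC than in splenic PMN-MDSC (edgeR interactions, adjusted p = 0.00707 and 0.0132). Irf8 fell in all 3 treated splenic PMN-MDSC libraries relative to the lowest untreated one. Leaving out treated splenic PMN-MDSC library 3 took the adjusted p-values to 0.0538 and 0.0788, and leaving out library 2 took the second to 0.0604.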

How the results depend on the processing

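No paired analysis was possible by label, because the count columns do not carry the mouse numbers of the sample titles. The running numbers of the columns follow the order of the titles, but a match of mice by that order was not tried. Comparisons between populations therefore take no account of shared mice, and the effect of pairing on them was not tested. Counts of members called, out of 8, moved by more than 1.5 times as follows. At the stricter threshold, they fell to 0 in treated splenic PMN-MDSC, 1 in tumor PMN-MDSC, 0 in tumor M-MDSC, 3 for tumor against splenic untreated PMN-MDSC, 3 for splenic and 0 for tumor M-MDSC against PMN-MDSC, and 0 for both Irf8 interactions. Of all genes tested, 0.0413%, 0.241%, 0.012%, 26.6%, 27.4% and 0.726% passed in this order. In the PMN-MDSC and the spleen interaction, 0.363% and 1.44% passed. Where so few genes passed, a count of 0 says little of the family. DESeq2 gave 2 in treated splenic M-MDSC, 2 in tumor M-MDSC and 2 for M-MDSC against PMN-MDSC in tumor. It called 2036 of 8827, 797 of 8360 and 898 of 8536 genes there, so the count in splenic M-MDSC is near the share of all genes. Without a filter, 2 each were called in treated tumor M-MDSC, between spleen and tumor M-MDSC, between M-MDSC and PMN-MDSC in tumor and in both interactions. Genes called were 1064 of 25966 in treated tumor M-MDSC. In the next 2 comparisons they were 2622 and 1291 of 36755, and in the PMN-MDSC and spleen interactions 982 and 1592 of 36755. Fits of the contrast's groups alone gave 4 for spleen against tumor M-MDSC and 2 for M-MDSC against PMN-MDSC in tumor. These fits called 2357 of 8298 and 990 of 7623 genes. Without normalization factors, 2 were called in splenic M-MDSC, 3 between spleen and tumor M-MDSC and 2 in the tumor-minus-spleen interaction of PMN-MDSC. Genes called there were 1771 of 8827, 2537 of 8536 and 1189 of 8536. Smaller moves were to 4 in treated splenic PMN-MDSC (DESeq2, no filter and all groups in the fit), to 7 for splenic M-MDSC against PMN-MDSC (DESeq2, RLE factors and those groups alone) and to 4 for tumor against splenic PMN-MDSC (no filter and those groups alone). In the same order, genes called were 1354 of 7261, 1818 of 27640 and 2157 of 8536 for the first. They were 5348 and 5181 of 8536 and 5523 of 8579 for the second, and 6424 of 36755 and 4714 of 7971 for the third.

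With each library left out in turn, the count ranged from 1 to 4 in splenic PMN-MDSC, 1 to 2 in splenic M-MDSC, 0 to 1 for spleen against tumor M-MDSC, 0 to 1 for M-MDSC against PMN-MDSC in tumor, 0 to 1 for the PMN-MDSC interaction and 0 to 2 for the spleen interaction. In 1 of the 7 fits for splenic PMN-MDSC, without untreated library 1, Irf4 fell under the filter and was not tested. Irf7 kept its call by treatment in every population and every alternative run at the adjusted p-value of 0.05.

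None of the log2 values that changed sign was called. Without a filter, Irf3 and Irf8 in tumor PMN-MDSC came to 0.026 and 0.025. Without factors, Irf1 in splenic PMN-MDSC came to -0.14, Irf3 and Irf8 in tumor PMN-MDSC to 0.0055 and 0.041, Irf3 in tumor M-MDSC to 0.032, Irf2 for tumor against spleen M-MDSC to -0.065 and Irf3 for splenic M-MDSC against PMN-MDSC to 0.17. Leaving out libraries, Irf1 ranged from -0.16 to 0.58 in splenic and -0.16 to 0.25 in tumor PMN-MDSC, Irf2 from -0.42 to 0.064 and Irf3 from -0.13 to 0.058 in tumor M-MDSC. In tumor PMN-MDSC, Irf3 ranged from -0.077 to 0.069, Irf5 from -0.016 to 0.18 and Irf8 from -0.23 to 0.21. Irf4 for M-MDSC against PMN-MDSC in tumor ranged from -0.54 to 0.23. Of the tumor-minus-spleen interactions, Irf4 ranged from -0.0097 to 1.06 (PMN-MDSC) and -1.47 to 0.38 (M-MDSC), Irf9 from -0.15 to 0.40 (PMN-MDSC) and Irf7 from -0.13 to 0.25 (M-MDSC), and Irf7 in the spleen interaction from -0.13 to 0.44. The causes were not tested.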
